A study of Arabidopsis thaliana with 8 samples.

Results

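The comparison is between leaves of 2 Arabidopsis thaliana lines that had received no salt, the transgenic line M6PR and the wild type Col. It uses the 4 arrays labelled M6PR at 0 mM NaCl and Col at 0 mM NaCl, of 8 arrays in all, and was chosen from those labels alone, with 2 arrays a group. M6PR plants carry the celery gene for mannose-6-phosphate reductase. The promoter of the transgene, and whether the plants derive from 1 transformant, are not given in the sources used here. The other groups are M6PR at 100 mM NaCl and Col at 100 mM NaCl, for which salt began 14 days after sowing. All plants were 20 days old and had grown in short days, and each array holds leaves of at least 15 seedlings pooled from a replicate pot. The question is which genes differed between the lines before any salt was given.

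Mannose-6-phosphate reductase is an enzyme of mannitol synthesis in celery, which uses mannitol as a major transported sugar alcohol and osmolyte. Arabidopsis makes little mannitol of its own, and the enzyme draws on hexose phosphate, a pool that also feeds starch, sucrose, cell wall polysaccharides and ascorbate. A leaf's transcripts follow its sugar status, the light and clock phase at harvest, touch and wounding, and the state of its cell walls, so the lists examined cover these processes.

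The groups cannot be told apart from 2 other differences. The M6PR arrays are described as accession Ws, whereas the wild type is Col, and the Col arrays also belong to another series. No value of the transgene was analysed here, so the line labels have no direct check. Leaf identity was seen in both lines. RCA (Rubisco activase) lay at 14.71 and 14.67 log2 units in M6PR and at 14.82 and 14.70 in Col, and PRK (phosphoribulokinase) at 13.85 and 13.70 in M6PR and at 13.96 and 13.96 in Col. The root markers EXPA7 and EXPA18 and the seed marker PAP85 lay at the lowest value of the arrays, 2.15, in both lines. FMA, a guard cell regulator, lay at 6.17 and 5.91 in M6PR and at 6.38 and 5.95 in Col. In such bulk leaf samples, fewer cells of a type and less RNA per cell cannot be told apart.

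Replicates of the unsalted groups were close, with a root mean square SD of 0.248 log2 units in M6PR and 0.172 in Col. In the salted groups it was 0.426 in M6PR and 0.404 in Col. The array labelled M6PR 100 mM replicate 1 correlated with M6PR 0 mM replicate 1 at r = 0.983, with its own replicate at 0.982 and with the Col 0 mM arrays at 0.981 each, across probe sets. The salted arrays enter the comparison of unsalted leaves through the shared estimate of the spread, and 1316 probe sets were called from the unsalted arrays only, against 1599 with all arrays. A fit without the first replicate of both salted groups leaves 1 array in each, which adds nothing to the spread. It therefore cannot show what those first replicates do to the unsalted comparison.

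Of 22746 probe sets, 1599 (7.03%) differed between unsalted M6PR and Col leaves at an adjusted p under 0.05 in limma, a linear model with variances moderated across probe sets. In M6PR 904 (3.97%) were higher and 695 (3.06%) lower. The higher calls had a median difference of 1.77 log2 units, and 736 reached 2-fold and 115 reached 16-fold. The lower calls had a median of -1.23, and 437 reached 2-fold and 25 reached 16-fold. Over all probe sets the median absolute difference was 0.147. Each unsalted array moved the count by over 1.5 times. It was 533 when M6PR replicate 1 was dropped, with 375 higher, and 885 when M6PR replicate 2 was dropped, with 646 higher. Dropping Col replicate 1 left 748 calls, with 469 lower in M6PR, and dropping Col replicate 2 left 998, with 674 lower in M6PR. The arrays of the lines did not overlap in 44.2% of probe sets (18.1% with M6PR higher and 26.0% with M6PR lower), so separation of the 4 values alone says little. An exact permutation test of 2 against 2 arrays cannot go below p = 0.333, and every p below therefore rests on the model.

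Values below log2 4 were treated as background. Where 1 line lay below it the fold is given as "at least", measured against that level, and where both did no fold is given. Among the higher calls 749 were measured on both sides, 127 are bounds and 28 were dim in both lines. Among the lower calls these counts were 521, 117 and 57. Over the calls measured on both sides the median was 1.68 for higher ones, 68 of which reached 16-fold, and -1.15 for lower ones, 10 of which did.

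At 1 probe set each, 837 of 13356 genes (6.27%) were called, 446 higher (3.34%) and 391 lower (2.93%) in M6PR. Of these, 109 carry a gene symbol, 55 higher and 54 lower, out of 1557 measured genes with a symbol (7.00% in all, 3.53% higher and 3.47% lower). The other 728 are known here by locus only. Called genes lay on all 5 chromosomes at similar shares, between 5.86% of genes on chromosome 2 and 6.54% on chromosome 1. None of 69 genes of the plastid genome was called by limma, and 1 had an unadjusted p under 0.05, against 2386 of the 13356 genes.

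Of the 109 called genes with a symbol, 77 fell into 12 groups by known function. The groups were formed after the values were seen and carry no test. Those with members in 1 direction only were receptors and signal peptides (6 of 6 higher), genes of energy shortage and reserve use (4 of 4 higher: AKINBETA1, MCCA, SDP1 and ATG8E), UDP-glycosyltransferases (6 of 6 lower) and cytochromes P450 (2 of 2 lower). BZIP53 was counted among transcription factors, and the 3 sugar and starch genes were split, with TMT1 higher and SWEET1 and APL3 lower. These directions depend on how the genes were sorted. The cell wall group was split, with 6 higher and 8 lower, and so were transcription factors, with 7 higher and 8 lower.

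The rule for named genes, given below, picks genes that are not all described here. Among those not described further is the largest lower call of a gene, at the locus AT4G14090. It lay at 4.18 and 4.15 in M6PR, against 10.29 and 10.61 in Col, 78.2-fold lower (adjusted p 0.0226 in limma). Single genes rested on all 4 unsalted arrays to different degrees. By the rule for named genes 71 called genes are named, and 10 of them were still called when any 1 unsalted array was left out. Dropping M6PR replicate 1 ended 57 of the 71 calls, M6PR replicate 2 48, Col replicate 1 52 and Col replicate 2 45, and no direction was reversed. Among all called genes with a symbol, the 16 called in each of these 4 fits were EXLA1, THE1, RALFL22, ATL8, B120, TET8, TMT1, GT2, MCCA, BZIP53, ELC, ATCRT1 and ATN1, higher in M6PR, and BIM1, CSLC5 and UGT84A4, lower in M6PR.

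**Figure D1:**
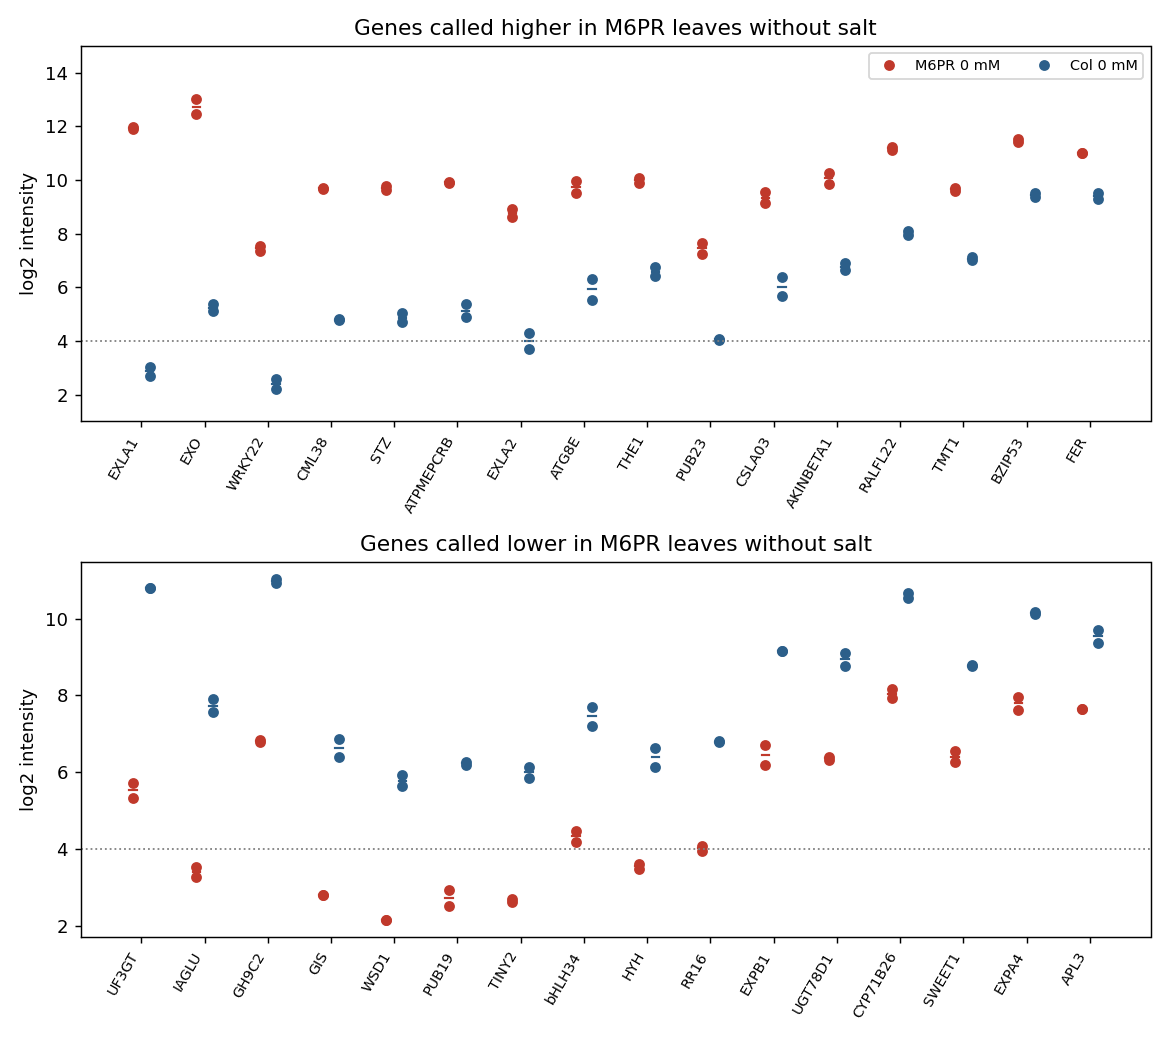
Log2 intensity (vertical axis) on each array of 16 genes called higher (top) and 16 called lower (bottom) in unsalted M6PR leaves (red) relative to unsalted Col leaves (blue). Points are arrays, short bars group means of 2 arrays, and the dotted line marks the background level of log2 4. No pair of groups overlaps, as for EXLA1, at 11.90 and 11.97 in M6PR and 2.7 and 3.04 in Col.

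Both called wall receptors and both called RALF peptide genes were higher in M6PR. THE1 and FER encode THESEUS1 and FERONIA, receptor kinases that monitor the cell wall, and RALF peptides are ligands of FERONIA and its relatives. THE1 lay at 9.90 and 10.08 in M6PR, against 6.74 and 6.44 in Col, 10.6-fold higher (log2 difference 3.40, SE 0.19, adjusted p 0.00596). FER lay at 11.01 and 11.00 in M6PR, against 9.52 and 9.28 in Col, 3.05-fold higher (1.61, SE 0.17, adjusted p 0.0181). The lines were separate for both receptors, and FER was bright in each.

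The peptide gene RALFL22 lay at 11.13 and 11.24 in M6PR, against 8.11 and 7.94 in Col, 8.95-fold higher (adjusted p 0.00643). RALFL33 lay at 12.14 and 12.11 in M6PR, against 9.98 and 10.02 in Col, 4.36-fold higher (adjusted p 0.0138). These were the called members among 11 measured RALFL genes. B120, a lectin-type receptor kinase, lay at 5.21 and 4.78 in M6PR and below background in Col, at least 1.99-fold higher. PTI1-4, a cytoplasmic kinase, differed by 1.4 log2 units.

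In the wider list of receptor kinases 6 genes were measured, THE1 and FER were called, and 5 had all M6PR values above all Col values, against 6.27% of all genes called and 16.3% separated upward. Of the 6, 2 were below background in both lines, so the 5 include dim values. The list's median difference was 1.08, against 0.00 over all probe sets. BIK1, a kinase that acts downstream of immune receptors, averaged 1.19 log2 units above Col and was not called (adjusted p 0.250).

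Wall loosening genes moved in both directions. Expansins loosen the wall without cutting it, xyloglucan transglycosylases cut and rejoin xyloglucan, and family 9 glucanases cut glucan chains. EXLA1, an expansin-like gene, lay at 11.90 and 11.97 in M6PR, against 2.7 and 3.04 in Col, at least 245-fold higher (adjusted p 0.00595). Its relative EXLA2 lay at 8.62 and 8.90 in M6PR, against 3.71 and 4.3 in Col, 27.0-fold higher (adjusted p 0.0390). EXLA1 was thus near the bottom of the scale in Col and among bright genes in M6PR.

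EXO (EXORDIUM), a brassinosteroid-responsive growth gene, lay at 12.46 and 13.02 in M6PR, against 5.10 and 5.37 in Col, 181-fold higher (7.50, SE 0.60, adjusted p 0.0105). The pectin methylesterase gene ATPMEPCRB lay at 9.88 and 9.94 in M6PR, against 5.37 and 4.89 in Col, 27.5-fold higher. CSLA03, of the mannan synthase family, lay at 9.55 and 9.14 in M6PR, against 6.38 and 5.67 in Col, 9.99-fold higher. EXGT-A3, a xyloglucan endotransglycosylase, was 3.55-fold higher.

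The opposite held for other wall enzymes. The glucanase gene GH9C2 lay at 6.80 and 6.84 in M6PR, against 11.04 and 10.92 in Col, 17.9-fold lower (-4.16, SE 0.41, adjusted p 0.0153). GH9B8 lay at 5.74 and 5.14 in M6PR, against 8.46 and 7.97 in Col, 6.85-fold lower. The beta-expansin EXPB1 lay at 6.70 and 6.20 in M6PR, against 9.15 and 9.16 in Col, 6.53-fold lower.

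EXPA4, an alpha-expansin, lay at 7.96 and 7.62 in M6PR, against 10.16 and 10.12 in Col, 5.10-fold lower (adjusted p 0.0199). EXPA15 lay at 3.35 and 3.80 in M6PR, against 5.77 and 5.81 in Col, at least 3.46-fold lower. XTH32 was 3.04-fold lower, and CSLC5, of the family that makes the xyloglucan backbone, 2.99-fold lower. EXPA20 was called lower while dim in both lines.

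Across the list of expansins and other wall loosening genes, 26 were measured, 4 were called higher and 5 lower, and the median difference was 0.00. Of the 26, 9 were below background in both lines. The share called was 34.6%, against 6.27% of all genes. None of the 4 measured genes of the wall synthesis list was called, and 1 had an unadjusted p under 0.05, but that list does not hold CSLA03 or CSLC5, which were called.

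**Figure D2:**
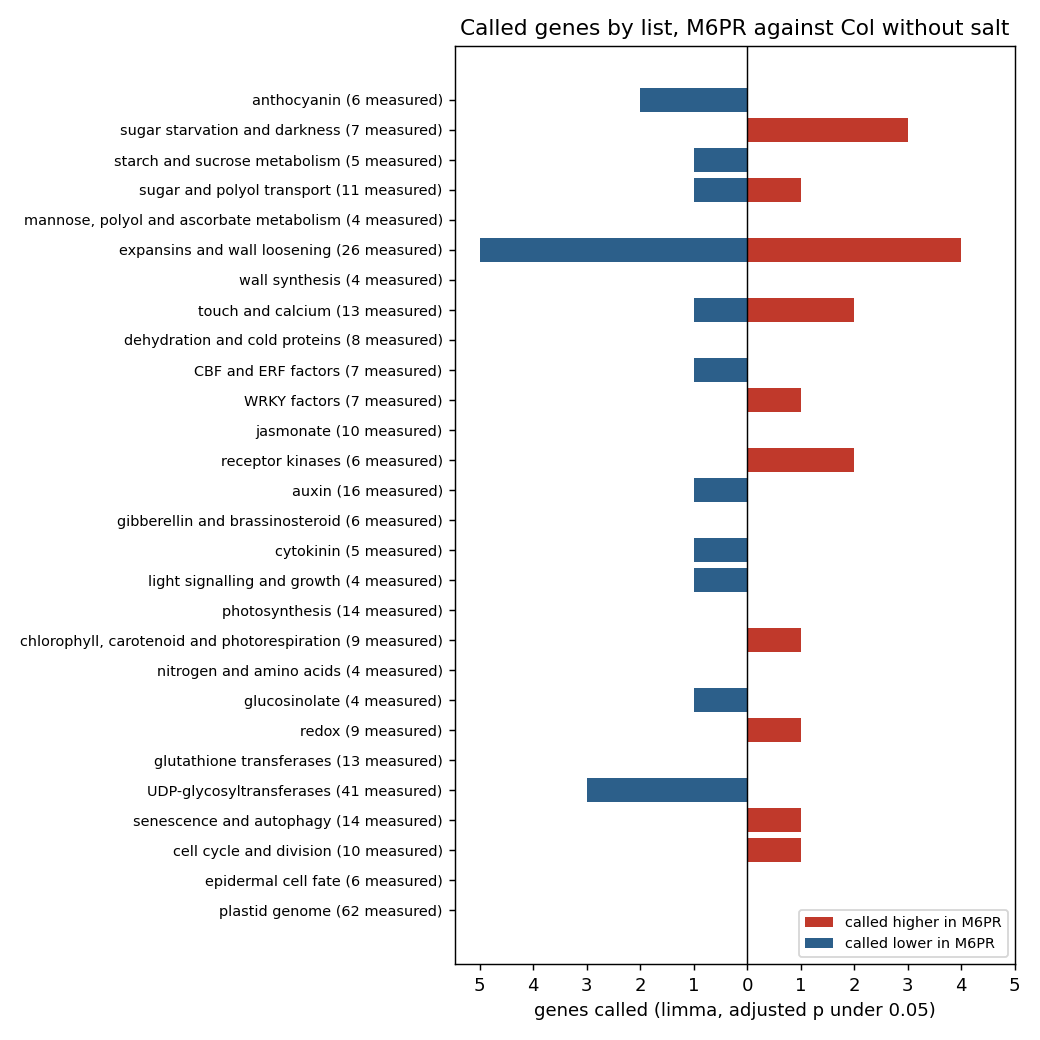
Number of genes called higher (red, to the right of 0) and lower (blue, to the left) in unsalted M6PR relative to unsalted Col leaves for each functional list with at least 4 measured genes. The list of wall loosening genes has the most calls, 4 higher and 5 lower, and the plastid genome list has none of 62.

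Of the measured genes of sugar shortage and darkness, 3 were called and all 3 were higher in M6PR. SnRK1 is the plant kinase that switches metabolism to reserve use when sugars run short, and AKINBETA1 encodes one of its regulatory subunits. AKINBETA1 lay at 10.27 and 9.87 in M6PR, against 6.89 and 6.63 in Col, 9.92-fold higher (3.31, SE 0.28, adjusted p 0.0117). MCCA, a subunit of the carboxylase that breaks down leucine, lay at 8.98 and 8.83 in M6PR, against 6.98 and 6.77 in Col, 4.08-fold higher (adjusted p 0.00843). BZIP53, a transcription factor of amino acid metabolism and seed maturation, lay at 11.40 and 11.53 in M6PR, against 9.53 and 9.35 in Col, 4.07-fold higher (adjusted p 0.0079).

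These 3 were the called members of 7 measured genes of sugar starvation and darkness (42.9%, against 6.27% of all genes). The list's median difference was 0.44. MCCB, the partner subunit of MCCA, differed by 0.04, and IVD, an enzyme of the same leucine pathway, by 0.22, and neither was called. Outside that list, some of the loci among the 20 largest higher calls are given here. Their functions were not examined, so they are not counted with the genes of sugar shortage. Others of the 20 are not described further, such as AT3G59350, at least 112-fold higher, and AT1G50040, at least 54.1-fold higher. AT3G15630 lay at 12.16 and 12.01 in M6PR, against 2.45 and 2.57 in Col, and was at least 272-fold higher. Also outside the list, AT3G15450 was 136-fold higher and AT5G19120 91.2-fold higher.

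Genes for the use of stored reserves were called beside them. ATG8E, one of the small proteins that build autophagosomes, lay at 9.95 and 9.53 in M6PR, against 6.30 and 5.54 in Col, 14.1-fold higher (adjusted p 0.0111). None of the other ATG8 genes measured was called, and ATG8D, at 6.58 and 7.56 in M6PR and 6.10 and 6.46 in Col, had the next largest difference, 0.79. In the list of senescence and autophagy 14 genes were measured and 1 was called (7.14%, against 6.27% of all genes). The list's median difference was -0.13, and 7 of the 14 had both M6PR arrays below both Col arrays, while 2 had both above. Over all genes 24.0% were separated downward and 16.3% upward. SDP1, a lipase of storage oil, lay at 9.69 and 9.21 in M6PR, against 7.39 and 7.41 in Col, 4.14-fold higher at an adjusted p of 0.0499.

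Sugar transport and starch genes differed singly. TMT1, which moves hexoses into the vacuole, lay at 9.58 and 9.71 in M6PR, against 7.00 and 7.15 in Col, 5.96-fold higher (2.58, SE 0.09, adjusted p 0.00307). SWEET1, a glucose carrier of the plasma membrane, lay at 6.54 and 6.26 in M6PR, against 8.79 and 8.77 in Col, 5.19-fold lower (adjusted p 0.0204). They were the called members of 11 measured sugar and polyol transporters, and the tonoplast relative TMT2 differed by -0.25.

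APL3, a large subunit of the enzyme that commits carbon to starch, lay at 7.65 and 7.64 in M6PR, against 9.71 and 9.37 in Col, 3.72-fold lower (adjusted p 0.0387). It was the called member of 5 measured starch and sucrose genes (20%, against 6.27% of all genes). None of 4 measured genes of mannose, polyol and ascorbate metabolism was called, and 1 had an unadjusted p under 0.05. VTC4, of ascorbate synthesis, lay at 10.26 and 9.93 in M6PR, against 11.27 and 11.08 in Col (-1.08, adjusted p 0.0514). PMM, phosphomannomutase, differed by -0.50 and GME, which makes GDP-galactose from GDP-mannose, by -0.12.

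UF3GT and UGT78D1, which glycosylate flavonoids, were lower in M6PR. Glycosyltransferases attach sugars to anthocyanins, flavonols and hormones. UF3GT, which adds xylose to anthocyanins, lay at 5.72 and 5.33 in M6PR, against 10.79 and 10.79 in Col, 38.3-fold lower (-5.26, SE 0.62, adjusted p 0.0214). UGT78D1, a flavonol rhamnosyltransferase, lay at 6.32 and 6.39 in M6PR, against 9.11 and 8.76 in Col, 5.99-fold lower (adjusted p 0.0220). The groups were separate for both genes.

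Of 37 gene names in the anthocyanin list 6 genes were measured, and these 2 were the called ones (33.3%, against 6.27% of all genes). The median difference of the 6 was -2.18, against 0.00 over all probe sets. Called loci without a symbol were not sorted into the functional groups, so flavonoid genes among them are not counted. UGT78D2, which glucosylates flavonoids, lay at 7.75 and 6.75 in M6PR and 10.84 and 10.72 in Col (adjusted p 0.0621). DFR, a committed enzyme of anthocyanin synthesis, lay at 11.05 and 9.59 in M6PR and 12.06 and 12.13 in Col (adjusted p 0.252). CHIL, which helps chalcone isomerisation, lay at 7.61 and 6.10 in M6PR and 10.18 and 9.94 in Col (adjusted p 0.0727). In these 3 the M6PR arrays differed from each other by at least 1 log2 unit, while the Col arrays were close.

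Most of the glycosyltransferase family was dim. Of 41 measured members of its list, 25 were below background in both lines, 3 were called lower and none higher, and the median difference was 0.00. The share called was 7.32%, near the 6.27% of all genes. UGT76E11 lay at 6.56 and 6.52 in M6PR, against 8.93 and 8.72 in Col, 4.88-fold lower. UGT72B3 lay at 2.75 and 2.75 in M6PR, against 5.65 and 5.18 in Col, at least 2.67-fold lower. UGT84A4, a hydroxycinnamate glucosyltransferase, was at least 1.83-fold lower, and IAGLU, which conjugates auxin to glucose, lay at 3.52 and 3.28 in M6PR, against 7.91 and 7.56 in Col, at least 13.3-fold lower.

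Stress transcription factors rose or fell one by one. STZ, a zinc finger repressor induced by salt and cold, lay at 9.63 and 9.78 in M6PR, against 4.69 and 5.05 in Col, 28.6-fold higher (4.84, SE 0.44, adjusted p 0.0131). WRKY22, a factor of immune and dark responses, lay at 7.55 and 7.36 in M6PR, against 2.22 and 2.59 in Col, at least 11.0-fold higher (adjusted p 0.0230). WRKY22 was the called member of 7 measured WRKY genes, and WRKY53 differed by 0.16.

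GT2, a trihelix factor, lay at 8.96 and 8.71 in M6PR, against 6.58 and 6.62 in Col, 4.72-fold higher. The locus AT5G61590, which RefSeq also names DEWAX, a repressor of wax synthesis, lay at 12.63 and 12.60 in M6PR, against 7.59 and 7.49 in Col, 33.7-fold higher (adjusted p 0.0020). WSD1, which makes wax esters, lay at 2.15 and 2.16 in M6PR, against 5.92 and 5.63 in Col, at least 3.42-fold lower. WSD1 was thus at the lowest value of the arrays in unsalted M6PR. With salt WSD1 lay at 6.16 and 5.23 in M6PR and at 5.49 and 5.53 in Col. AT5G61590 with salt lay at 12.53 and 12.27 in M6PR and at 11.29 and 11.58 in Col. A link between these 2 genes was not tested. bHLH121, a regulator of iron uptake, was 3.27-fold higher, and BZIP60, of the unfolded protein response, 1.8-fold higher.

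Among factors lower in M6PR, TINY2, of the DREB group, lay at 2.61 and 2.69 in M6PR, against 6.13 and 5.85 in Col, at least 3.98-fold lower. GIS, which promotes trichome formation, lay at 2.79 and 2.79 in M6PR, against 6.85 and 6.39 in Col, at least 6.15-fold lower. HYH, the homolog of the light regulator HY5, lay at 3.61 and 3.48 in M6PR, against 6.64 and 6.14 in Col, at least 5.23-fold lower (adjusted p 0.0481). All 3 were below background in M6PR and above it in Col.

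bHLH34 lay at 4.46 and 4.19 in M6PR, against 7.21 and 7.70 in Col, 8.77-fold lower. LHW, a regulator of vascular development, was 4.50-fold lower, and BIM1, a partner of brassinosteroid factors, 2.03-fold lower at an adjusted p of 0.00921. The trichome repressor TRY lay at 4.09 and 4.16 in M6PR and 8.25 and 8.16 in Col and was not called (-4.08, adjusted p 0.105). Its salted M6PR arrays, which enter the shared estimate of the spread, lay at 7.26 and 4.32. MYC4, of jasmonate signalling, lay at 4.86 and 4.68 in M6PR and 7.70 and 7.71 in Col and was not called either (adjusted p 0.0781).

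Of 5 called genes of calcium and stress signalling, 4 were higher in M6PR. CML38, a calmodulin-like protein of wounding and low oxygen, lay at 9.72 and 9.67 in M6PR, against 4.80 and 4.79 in Col, 29.8-fold higher (4.90, SE 0.40, adjusted p 0.0112). CML42, which affects trichome branching, lay at 8.55 and 9.20 in M6PR, against 5.77 and 5.92 in Col, 8.18-fold higher (adjusted p 0.0408). GLR3.6, a channel of wound signalling, lay at 5.35 and 5.35 in M6PR, against 5.98 and 6.15 in Col, 1.64-fold lower. They were the called members of 13 measured touch and calcium genes (23.1%, against 6.27% of all genes), 5 of which were dim in both lines.

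SAG101, a partner of the immune regulator EDS1, lay at 6.74 and 6.32 in M6PR, against 5.29 and 5.15 in Col, 2.48-fold higher (adjusted p 0.0208). SGT1A, a co-chaperone of immune receptors, was 1.91-fold higher. None of 10 jasmonate genes and none of 8 dehydration and cold genes was called, with 1 and 3 at an unadjusted p under 0.05. The dehydrin LTI30 lay at 7.42 and 8.24 in M6PR and 5.54 and 5.06 in Col (2.53, adjusted p 0.128). The defensin PDF1.2 spanned 12.45 and 8.32 within M6PR.

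Ubiquitin ligases were split. PUB23, a brake on immune signalling, lay at 7.64 and 7.25 in M6PR, against 4.05 and 4.09 in Col, 10.4-fold higher (adjusted p 0.0226). ATL8, a RING-type ligase, lay at 7.12 and 6.66 in M6PR, against 3.65 and 3.84 in Col, at least 7.41-fold higher. PUB19, another U-box ligase, lay at 2.93 and 2.52 in M6PR, against 6.27 and 6.19 in Col, at least 4.68-fold lower. ATCRT1 was also higher, and RHF1A and LUL1 were lower.

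Membrane traffic genes showed small differences with little spread. ELC and the VPS proteins belong to the ESCRT machinery, which sorts proteins for breakdown in the vacuole. ELC lay at 8.47 and 8.59 in M6PR, against 7.06 and 7.04 in Col, 2.78-fold higher (1.48, SE 0.06, adjusted p 0.00384). VPS60.1 lay at 8.93 and 8.89 in M6PR, against 7.21 and 7.38 in Col, 3.07-fold higher. SEC15B, of the exocyst that tethers secretory vesicles, lay at 8.60 and 8.71 in M6PR, against 7.09 and 6.93 in Col, 3.12-fold higher.

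VPS2.1 was 1.85-fold higher and ATRER1A, of retrieval to the endoplasmic reticulum, 1.91-fold higher. ARLA1A, a small GTPase, was 2.66-fold lower, and ARLA1C and VPS60.2 were lower by less than 2-fold. The tetraspanin TET8 lay at 12.05 and 11.88 in M6PR, against 9.21 and 9.19 in Col, 6.78-fold higher (adjusted p 0.00643). TET10 was 6.59-fold higher and TET2 2.28-fold lower. These were the called members of 15 tetraspanins measured (20%, against 6.27% of all genes), 8 of which were dim in both lines.

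Light harvesting and carbon fixation showed no called gene among those measured. Of 83 gene names in the photosynthesis list 14 genes were measured and none was called, against 6.27% of all genes. Of the 14, 1 had an unadjusted p under 0.05, and their median difference was -0.14. Both M6PR arrays lay below both Col arrays in 7 of them and above in 1. In the plastid genome list, 30 of 62 genes had both M6PR arrays above both Col arrays and 1 had both below, with a median difference of 0.20, no call and 1 gene at an unadjusted p under 0.05. Over all genes, 16.3% were separated upward and 24.0% downward.

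Single genes of plastid and redox functions were called. PORB, which makes chlorophyllide in the light, lay at 12.97 and 13.48 in M6PR, against 11.70 and 11.85 in Col, 2.74-fold higher (adjusted p 0.0449). CCS, the copper chaperone of superoxide dismutase, lay at 9.58 and 10.00 in M6PR, against 7.88 and 8.11 in Col, 3.47-fold higher (adjusted p 0.0150). LPA2, of photosystem II assembly, was 1.82-fold higher.

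Hormone and growth regulators had few measured genes. RR16, a response regulator that dampens cytokinin signalling, lay at 4.08 and 3.95 in M6PR, against 6.78 and 6.82 in Col, 6.89-fold lower (adjusted p 0.0164). SIM, an inhibitor of cell division that promotes endoreduplication, lay at 7.65 and 7.62 in M6PR, against 6.04 and 6.34 in Col, 2.72-fold higher (adjusted p 0.0105). IAA29, an auxin repressor, was called lower while dim in both lines, and 14 of the 16 measured auxin genes were dim in both. AOP1, at the locus that shapes glucosinolate side chains, was 3.84-fold lower, as 1 of 4 measured glucosinolate genes (25%, against 6.27% of all genes). None of 3 clock genes was called, 1 had an unadjusted p under 0.05, and GI differed by 1.48 (adjusted p 0.223).

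Several families had no called member, among them 22 TBL and 20 BGLU genes, as grouped by the letters of their symbols, of which 4 and 3 had an unadjusted p under 0.05. Over all genes 6.27% were called, so no call in families of this size is not far from that share. Of these genes, 8 TBL and 13 BGLU were dim in both lines. Differences ranged from -3.28 to 2.21 in TBL and from -2.46 to 2.84 in BGLU. Of 48 lists, 6 had no measured gene, those of abscisic acid, NAC and MYB factors and of flower, pollen and vascular markers. In all, the lists hold 2397 gene names, of which 349 genes were measured, with 19 called higher and 20 lower. A list without a call therefore describes the members measured here.

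The arrays of salted plants were then used to ask whether the same genes separated the lines in other samples. Between M6PR and Col at 100 mM NaCl, 31 of 22746 probe sets were called (0.136%), 8 higher and 23 lower, and 9 of these were among the 1599, 4 in the same direction. Of the salted arrays, dropping M6PR replicate 1 gave 107 calls, M6PR replicate 2 1014, Col replicate 1 366 and Col replicate 2 1212. Dropping an unsalted array gave 7 for each of M6PR and 11 for each of Col. The 1599 had a median absolute difference of 0.283 with salt and 1.52 without salt.

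Of the 1599 probe sets, 1000 (62.5%) had a difference of the same sign with salt, against 49.3% of the 15912 probe sets with a nonzero difference at both levels. The 904 higher calls had a median difference of 0.19 with salt, and the 695 lower calls one of -0.03. Across all probe sets the line differences at 0 and 100 mM correlated at r = 0.0125 (Spearman rho -0.0261), a description across probe sets that share arrays.

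**Figure D3:**
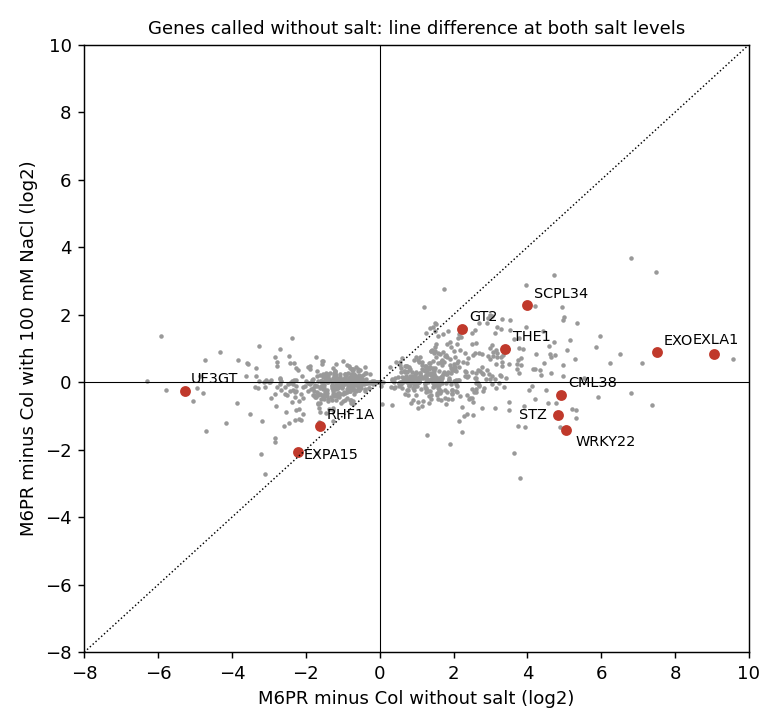
Line difference (M6PR minus Col, log2) of 837 genes called in unsalted leaves, without salt (horizontal axis) and with 100 mM NaCl (vertical axis). Grey points are genes, red points named examples, and the dotted line marks equal differences. Most genes lie near 0 on the vertical axis, as EXO does at 7.50 without salt and 0.89 with salt, and genes below background in 1 line are plotted at their deposited values, while EXPA15 and RHF1A lie near the dotted line.

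The line difference itself changed with salt for 330 probe sets (1.45%), of which 290 were among the 1599 called without salt, and in 281 of the 290 the difference was smaller at 100 mM. The 330 became 2234 when salted M6PR replicate 2 was dropped, 1130 and 501 when salted Col replicate 2 or 1 was dropped, and 572 when unsalted Col replicate 2 was dropped. These contrasts share the unsalted arrays, and the 1599 were chosen for their difference without salt. The overlap and the smaller differences at 100 mM are therefore a description. EXLA1 lay at 9.90 and 11.12 in salted M6PR, against 9.34 and 10.04 in salted Col, and both lines were then far above unsalted Col. STZ lay at 10.00 and 11.07 in salted M6PR, against 11.20 and 11.84 in salted Col. TMT1 lay at 8.31 and 8.50 in salted M6PR, against 8.25 and 8.31 in salted Col, between the unsalted groups.

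MCCA gave another pattern, at 6.84 and 7.15 in salted M6PR and 6.90 and 7.02 in salted Col, which are the levels of unsalted Col. TINY2 lay at 3.37 and 2.53 in salted M6PR and at 2.53 and 2.53 in salted Col, near the levels of unsalted M6PR. Unsalted Col was thus the group apart for TINY2 and EXLA1, and unsalted M6PR for MCCA.

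Some genes had a line difference of the same sign at both salt levels. The locus AT1G78450 was called at both, with 1.74 without salt and 2.75 with salt (adjusted p with salt 0.0205 in limma). So was AT5G37710, with 2.93 without salt and 1.91 with salt (adjusted p with salt 0.0342 in limma). None of the 4 genes with a symbol given next was called with salt. EXPA15 lay at 4.97 and 5.03 in salted M6PR, against 7.47 and 6.66 in salted Col, a difference of -2.07 with salt (adjusted p 0.159) and -2.22 without, where M6PR was below background. GT2 lay at 7.59 and 7.75 in salted M6PR, against 6.00 and 6.17 in salted Col, a difference of 1.58 with salt (adjusted p 0.0519) and 2.24 without. SCPL34, a serine carboxypeptidase-like gene, differed by 2.29 with salt (adjusted p 0.231) and 3.98 without. RHF1A differed by -1.31 with salt (adjusted p 0.127) and -1.62 without.

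**Figure D4:**
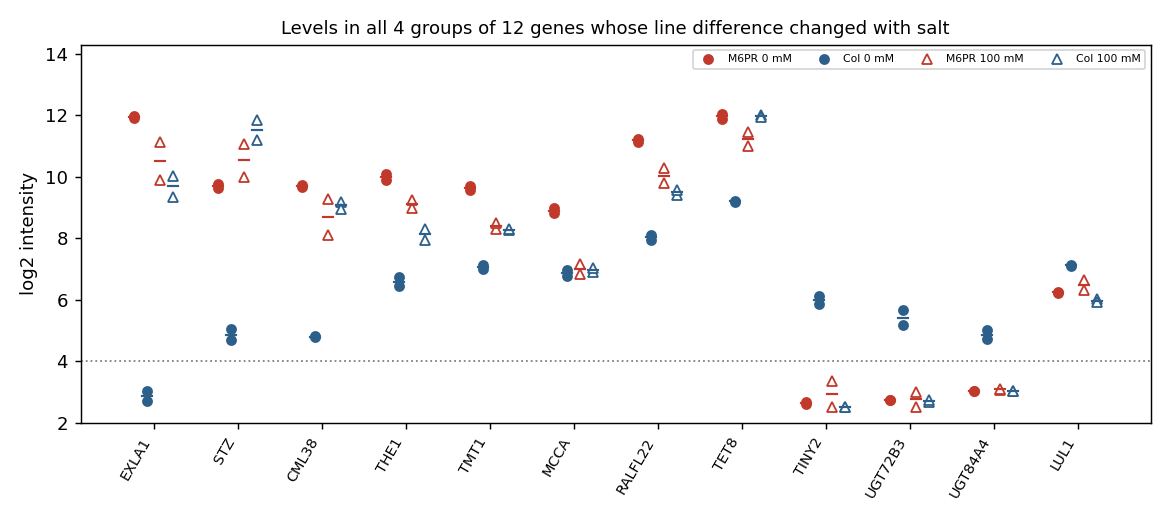
Log2 intensity (vertical axis) in all 4 groups of 12 genes whose line difference changed with salt (interaction, limma, adjusted p under 0.05). Points are arrays, filled without salt and open with 100 mM NaCl, red for M6PR and blue for Col, short bars are means of 2 arrays, and the dotted line marks log2 4. For EXLA1, STZ and CML38 unsalted Col lies below the other groups, and for TINY2, UGT72B3 and UGT84A4 above them.

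Across the 904 higher calls, unsalted Col had the lowest or highest mean of the 4 groups in 732 and unsalted M6PR in 777. Both salted means lay between the unsalted ones in 606, and the average of the salted means was nearer to unsalted M6PR in 426. Across the 695 lower calls these counts were 636, 538, 480 and 501. The probe sets were chosen for a wide gap between the unsalted groups, so that these would often stand at the ends, and the counts are given without a test.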

How the data were processed

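Leaf RNA of 2 lines, each with 0 and 100 mM NaCl, was measured on 8 Affymetrix arrays, 2 replicate pots a group. The authors deposited 1 log2 intensity per array for each probe set. GCOS and RMA are the tools listed in the submitters' processing notes. Their versions, the background model and the arrays normalized together are not given in the sources used here. The lowest value is 2.15, and 27.9% to 29.2% of probe sets per array lie within 0.01 of it, where a decrease cannot show. Array medians were 5.01 to 5.31.

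From these values, 64 array controls were left out and 1 mean per group was fitted to 22746 probe sets with limma 3.58.1 in R 4.3.3 (residual degrees of freedom 4, prior 0.409), two-sided, with Benjamini-Hochberg adjustment over all probe sets and calls at an adjusted p under 0.05. The fit was run on simulated normal values with 1 spread per probe set in all groups. Changes were added only to probe sets with a mean of at least log2 4. The simulation therefore cannot show how the fit handles values at the lowest level or groups of unlike spread. Log2 4 was set as background with the values in view. Of the probe sets, 13513 had 1 gene, 503 several and 8730 none, and 13436 matched the RefSeq annotation TAIR10.1, used for names. A gene on several probe sets was taken at the brightest.

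The named genes are the 20 largest called differences in each direction with the brighter group above background, the 3 largest called members of each list in either direction, and the 2 smallest p of lists without a call. Not all of them are described in the text, and most of those left out are loci without a symbol. The other called genes with a symbol, and list members without a call, were named after their values were seen. The comparison and lists were chosen with earlier results of these data known. Alternatives were filters on dim probe sets, quantile normalization, centring, a trend and robust variance prior, a replicate block, unsalted arrays only, a minimum change of 2-fold, and leaving out arrays. Whether the pots are independent plantings is not given, so p-values measure the spread between these samples. The number of arrays limits the precision.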

Additional observations from a re-analysis of the deposited data

Results flagged for a closer look

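For 15 named genes the difference between the lines was larger without salt than with it, by a test of the change itself (interaction in limma, adjusted p under 0.05 over all probe sets). All 15 were named for a called difference without salt, and the test uses the same unsalted arrays. That choice favours a larger difference without salt, so the direction is a description. The values below are the difference of M6PR minus Col without salt, less the same difference at 100 mM NaCl, in log2 units. The expansin-like gene EXLA1 changed by 8.24, the zinc finger gene STZ by 5.82 and the calmodulin-like gene CML38 by 5.27. The vacuolar hexose carrier TMT1 changed by 2.46, the wall receptor THE1 by 2.41 and the leucine breakdown gene MCCA by 2.00.

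In 3 genes that were lower in unsalted M6PR the change was negative, at -3.77 for the DREB factor TINY2, -2.71 for UGT72B3 and -1.91 for UGT84A4. TINY2, UGT72B3 and UGT84A4 were below background in all but unsalted Col. EXLA1 and the loci AT3G15630, AT2G25735, AT1G25400 and AT1G69890 were below background in unsalted Col. The values given for these 8 genes are differences of deposited values and not measured sizes.

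Loci without a symbol gave 8.88 for AT3G15630, 7.12 for AT2G25735, 6.53 for AT3G15450, 6.37 for AT1G25400, 5.67 for AT5G19120 and 5.41 for AT1G69890. Replicates spread more in the salted groups, with a root mean square SD of 0.426 in M6PR and 0.404 in Col, than in the unsalted ones, with 0.248 in M6PR and 0.172 in Col. The part of that spread in these values was not tested.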

How the results depend on the processing

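The 1599 calls of the unsalted comparison became 2427 without probe sets below background in all groups, 970 with a replicate block and 149 at a minimum change of 2-fold, and 533 to 1824 when 1 array was left out. The 904 higher calls became 552 with the block, 122 at 2-fold and 279 to 942 without 1 array. The 695 lower calls became 1106 without the dimmest 25% of probe sets, 1146 without those below background, 418 with the block, 27 at 2-fold and 158 to 882 without 1 array. At 100 mM the 31 calls became 70 and 164 under the 2 dim filters, 139 after centring, 3 with the block, 587 without the first replicate of both salted groups and 7 to 1212 without 1 array. At a minimum change of 2-fold limma's treat called 0 there, while 2947 had an unadjusted p under 0.05 in the test without that minimum. The 330 probe sets whose line difference changed with salt became 1025 and 1362 under the dim filters, 1022 after centring, 53 with the block, 3 at 2-fold, 900 without the 2 salted arrays and 248 to 2234 without 1 array. The cause of these changes was not tested, except that a filter tests fewer probe sets and leaving out arrays leaves fewer samples. Of 71 named called genes, 20 lost the call with unsalted arrays only, 19 with the replicate block, 55 at 2-fold, 6 after quantile normalization, 4 with the trend and robust prior and 0 after centring or filtering, and none reversed.

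By the rule that each pair of groups must exceed 0.1, the replicate numbers were not taken to pair the samples. Deviations of replicate 1 correlated at 0.486 between M6PR with and without salt, 0.081 between the unsalted groups, 0.0539 between salted M6PR and unsalted Col, 0.0153 between Col with and without salt, -0.147 between the salted groups and -0.151 between unsalted M6PR and salted Col. With the salted Col numbers crossed, an alternative chosen after seeing the data, the replicate block gave 1034 calls without salt (575 higher, 459 lower), 3 with salt and 97 for the change with salt. Dim signal limits the values near 2.15, where a decrease cannot show.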
